A study of Mus musculus with 12 samples.

Results

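The genes described here encode subunits of the mitochondrial respiratory chain and the ATP synthase from the nuclear genome. They were chosen by symbol from the table of counts on coding sequences (CDS), as all genes whose names begin with Ndufa, Ndufb, Ndufc, Ndufs or Ndufv and a number, with Cox4 to Cox8, Uqcr or Atp5, together with Sdha to Sdhd. Cox7a2l and the Ndufaf assembly factors were left out. This gave 83 of the 20504 genes of the table, of which 37 belonged to complex I, 4 to complex II, 8 to complex III, 17 to complex IV and 17 to complex V. The symbols alone decided membership, and no measured value did. The rule therefore took in Atp5s and Atp5sl, which current nomenclature no longer counts as ATP synthase subunits, and it placed Ndufa4 and Ndufa4l2 in complex I although Ndufa4 has since been assigned to complex IV. None of the subunits encoded by mitochondrial DNA was in the table. Many of these genes have near-identical processed copies elsewhere in the genome, and since uniquely mapped reads were counted, the level of such a gene is uncertain.

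Complex I takes electrons from NADH, complex II takes them from succinate, complex III passes them from ubiquinol to cytochrome c, and complex IV hands them to oxygen. Complexes I, III and IV pump protons as they work, and complex V uses the resulting gradient to make ATP. Most subunits are translated on cytosolic ribosomes and imported, while a small hydrophobic core of complexes I, III, IV and V is made inside the organelle. Neurons depend on this pathway for the ATP that restores ion gradients. mTOR, a kinase that controls protein synthesis, has been linked to the translation of some nuclear-encoded mitochondrial mRNAs in other cells.

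The 12 libraries came from 6 adult Camk2a-RiboTag mice. In these mice the Camk2a promoter drives Cre in principal excitatory neurons of the forebrain, and Cre switches the endogenous ribosomal protein Rpl22 to a form with an HA tag. All 6 mice carried both alleles, so the controls did too. Mice C and D were given the mTOR inhibitor AZD-8055 by oral gavage (100 mg/kg) and their frontal brain tissue was taken 1 h later. Mice A and B were the controls, labelled untreated and described in the methods as given the Captisol vehicle. Each of these 4 mice gave 1 library of ribosome footprints and 1 of poly(A) RNA-Seq, prepared from a shared lysate. Mice E and F, also labelled untreated, each gave RNA-Seq of the whole homogenate (input) and of polysomes pulled down through the HA tag (RiboTag IP). Every group thus had 2 mice, and only the excitatory neurons that express Cre carried the tag.

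CDS counts per library ranged from 9395385 to 10649939 for RNA-Seq of mice A to D, from 3503873 to 9259938 for footprints, and from 9309496 to 15585831 for inputs and IPs. In the IP, 5 of 8 markers of excitatory neurons were higher and 2 lower than in the input, with a median log2 fold change of 0.60 over the list. Camk2a itself was among the lower ones. All 7 inhibitory neuron markers, all 6 astrocyte markers and all 6 oligodendrocyte markers were lower. The medians of these lists were −2.07, −4.41 and −2.71. Input and IP of a mouse came from the same lysate, so these differences describe the pulldown and not cell numbers. Carry-over of untagged RNA was not tested. Between mice, fewer cells of a type and less RNA per cell cannot be told apart in bulk samples.

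The respiratory chain held a steady share of the reads within each kind of library and a larger one in the IP. In RNA-Seq of mice A to D the 83 genes together took 1.78, 1.72, 1.73 and 1.77% of all CDS counts, and in footprints 1.96, 1.95, 1.89 and 1.89%. The footprint shares of mice A to D all lay above their RNA-Seq shares. In mice E and F they took 1.32 and 1.46% of the input and 3.16 and 3.46% of the IP, which is 2.39 and 2.38 times the input share. The inputs lay below the RNA-Seq libraries of mice A to D, and those libraries were not compared by a test.

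The complexes kept the order V, I, IV, III and II in the RNA-Seq, footprint and input libraries. In the input of mouse E, complex V held 0.504%, complex I 0.388%, complex IV 0.237%, complex III 0.118% and complex II 0.0757% of the CDS counts. In the IP of the same mouse these shares were 1.06, 1.05, 0.673, 0.271 and 0.106%, and in the IP of mouse F they were 1.15, 1.18, 0.719, 0.307 and 0.109%. Complex I thus drew level with complex V in the IP. The share of complex IV rose most, by a factor of 2.83 in mouse E and 2.84 in mouse F, followed by complex I with 2.70 and 2.72. Complex II rose least, by a factor of 1.41 and 1.32. Counts on long genes weigh more than counts on short ones, so these shares are not numbers of mRNA molecules, and the order of the complexes was not tested.

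**Figure D1:**
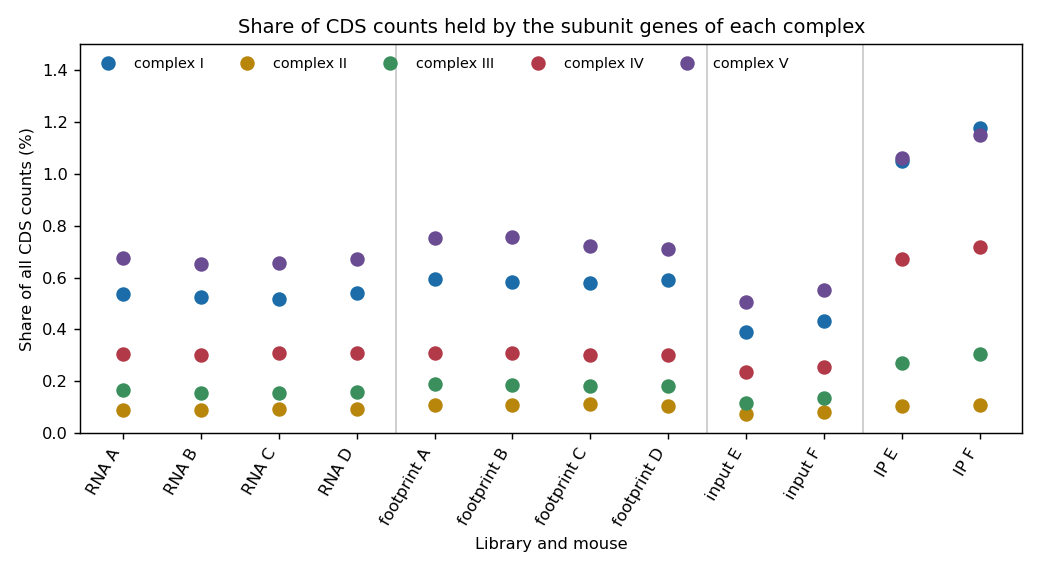
Share of all CDS counts (%, y axis) held by the subunit genes of each complex in the 12 libraries (x axis, named by library and mouse). Each point is 1 library. Complexes I and V reach between 1.05 and 1.18% in the IPs of mice E and F, above every other library, while complex II stays at or below 0.112% in all 12.

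Nearly the whole respiratory chain was higher in the RiboTag IP than in the input. Of the 83 genes, 76 reached a mean of 37 counts over the libraries of the IP comparison, and 74 of these were higher in the IP than in the input (edgeR's quasi-likelihood test, Benjamini-Hochberg adjusted, threshold 0.05). Of all 12211 genes tested, 36.5% were called higher and 39.0% lower. The median log2 fold change of the 76 genes was 1.92 against −0.067 for all genes. The excitatory neuron markers had a lower median, 0.60, and Camk2a was at −0.66. How much of the rise reflects cell type was therefore left untested. Coding lengths were not at hand, and a link between the rise and the length of a gene was not tested either. All 36 complex I genes tested, all 4 of complex II and all 8 of complex III were higher, as were 10 of 11 genes of complex IV and 16 of 17 of complex V. Cox6a2 was lower, and Atp5s did not pass the threshold. A total of 70 genes were more than 2-fold higher, a size that 20.4% of all genes reached.

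The 5 largest rises were those of Uqcr11, Ndufa5, Ndufa11, Atp5j2 and Ndufs5. Uqcr11, a small subunit of complex III, had 702 and 662 normalized counts in the inputs of mice E and F and 4042 and 3949.9 in their IPs. Both IPs lay far above both inputs, and the log2 fold change was 2.42 ± 0.117 (SE, n = 2 mice per group, adjusted p = 2.24e-06 by edgeR's quasi-likelihood test, Benjamini-Hochberg adjusted). Ndufa5, a subunit of the matrix arm of complex I, had 728 and 779 normalized counts in the inputs of mice E and F and 4007 and 4709.5 in their IPs. Its log2 fold change was 2.40 ± 0.125 (SE). Ndufa11, which sits in the membrane arm of complex I, gave 2.39 ± 0.121, and Atp5j2, the f subunit of the ATP synthase membrane part, gave 2.37 ± 0.112. Ndufs5 gave 2.36 ± 0.128, but its count on exons is 0 in all 8 RNA-Seq libraries while its CDS counts reach 3372, so its assignment of reads is uncertain.

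Sdha, Ndufs1 and Sdhc had the smallest rises among the genes called higher. Sdha, the flavoprotein of complex II that oxidizes succinate, had 4854 and 5261 normalized counts in the inputs of mice E and F and 7967 and 7821 in their IPs. The IPs lay above the inputs in both mice, and the log2 fold change was 0.51 ± 0.101 (SE, adjusted p = 0.00157 by edgeR's quasi-likelihood test, Benjamini-Hochberg adjusted). Ndufs1, the iron-sulfur protein of the NADH-oxidizing arm of complex I, had 1974 and 2489 normalized counts in the inputs of mice E and F and 3280.0 and 3981 in their IPs. Its log2 fold change of 0.57 ± 0.144 was the lowest of complex I. Atp5b and Atp5a1, which form the catalytic head of the ATP synthase, gave 0.89 ± 0.0908 and 1.11 ± 0.0913. The core protein Uqcrc2 of complex III gave 1.00 ± 0.122 and its partner Uqcrc1 1.41 ± 0.116.

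Complex II had the lowest median of the complexes, 0.88, and its members spread widely. Sdhc and Sdhd anchor the complex in the membrane, and they gave 0.67 ± 0.121 and 1.10 ± 0.125, while the iron-sulfur protein Sdhb gave 1.72 ± 0.136. The medians of complexes I, III, IV and V were 1.97, 1.79, 1.93 and 1.89. Complex II has 4 genes, which are not replicates, and its difference from the other complexes was not tested. Elsewhere in the chain, the NADH-binding subunit Ndufv1 gave 1.63 ± 0.105, the Rieske protein Uqcrfs1 1.52 ± 0.145, the rotor shaft Atp5c1 1.62 ± 0.139, and Cox5a, which surrounds the catalytic core of complex IV, 2.14 ± 0.148. Across the 76 genes the log2 IP over input of mouse E followed that of mouse F at a Pearson's r of 0.969 (Spearman's rho 0.954), as a description across genes that share these libraries.

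**Figure D2:**
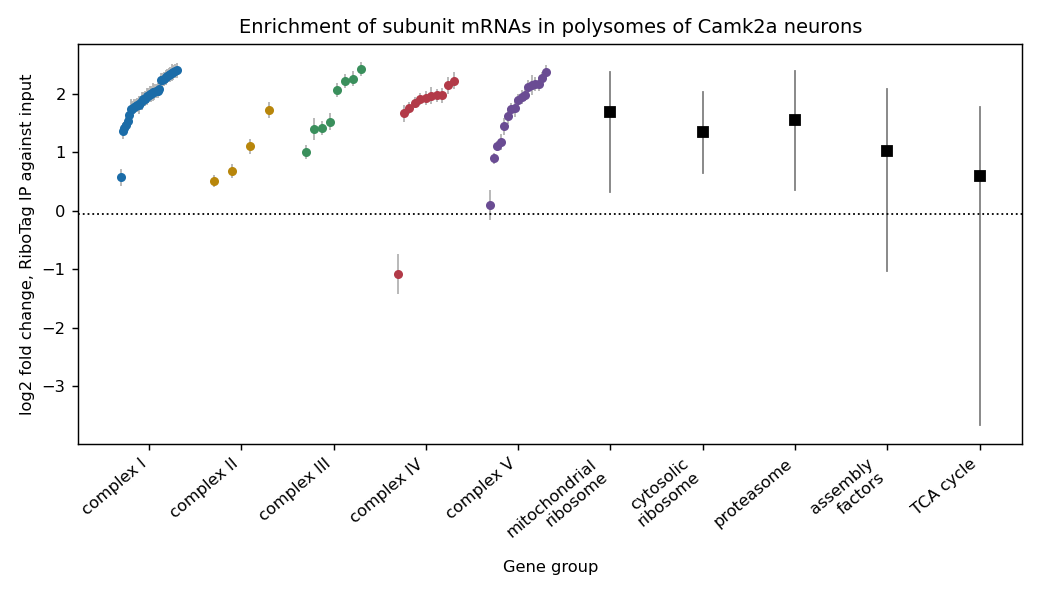
Log2 fold change of RiboTag IP against input (y axis) for each subunit gene, grouped by complex (circles with SE, n = 2 mice per group), and for 5 other gene lists (squares mark the median, lines the lowest and highest gene). The dotted line is the median of all genes. Almost all subunit genes lie above it, Sdha, Ndufs1 and Sdhc are low among them, and Cox6a2 lies at −1.08.

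Other proteins of the organelle showed smaller medians. The 76 mitochondrial ribosomal protein genes had a median of 1.69, with 74 higher and 0 lower. The 42 assembly factors of the respiratory complexes that could be tested had 1.01, with 29 higher and 1 lower, the lower one being Coa5. The 13 enzymes of the tricarboxylic acid cycle had 0.59, with 9 higher and 2 lower. Among these, Suclg2, which encodes the GTP-forming beta subunit of succinyl-CoA ligase, was at −3.67. Of 7 subunits and carriers outside the rule, such as cytochrome c (Cycs) and the complex I acyl carrier protein (Ndufab1), all 7 were higher, with a median of 1.72. Outside the organelle, cytosolic ribosomal proteins had 1.35 (78 of 78 higher) and proteasome subunits 1.54 (34 of 35 higher). Regulators of mitochondrial biogenesis had 0.15, with 3 of 11 higher and 5 lower, and the coactivator Ppargc1a was at −1.85. Coa5, Suclg2 and Ppargc1a were named after their values were seen.

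The enrichment was smaller when reads on whole exons were counted in place of CDS reads. On exons 72 of 75 genes were higher and 1 lower, where 33.7% of all genes were higher and 35.7% lower, and the median was 1.46. Ndufs1 then gave 0.21 and no longer passed the threshold (adjusted p = 0.180 by edgeR's quasi-likelihood test, Benjamini-Hochberg adjusted). Beside this, exon counts exceeded CDS counts over all genes by a median log2 of 0.56 and 0.58 in the input libraries of mice E and F, and by 0.84 and 0.92 in the IP libraries, while that of the subunit genes lay at 0.045 (input E), 0.039 (input F), 0.045 (IP E) and 0.040 (IP F). The part of this shift in the result was not tested. With total counts as the only scaling, the median of all genes moved to −0.51 and that of the subunit genes to 1.48, with 71 higher and 1 lower, where 24.7% and 51.4% of all genes were. Sdha, Sdhc and Ndufs1 then gave 0.070, 0.23 and 0.13 and no longer passed the threshold.

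Several subunits have a second gene with a tissue-restricted form, and these forms had few reads in the brain. Some of them were scarcer in the IP than in the input. Cox6a2, known from muscle and from parvalbumin interneurons, had 83 and 78 CDS counts in the inputs of mice E and F and 15 and 24 in their IPs. Both IPs lay below both inputs (log2 fold change −1.08 ± 0.341 (SE), adjusted p = 0.0174 by edgeR's quasi-likelihood test, Benjamini-Hochberg adjusted). It passed the limit of 37 counts only through its inputs, and without any count filter it gave −1.02 (adjusted p = 0.0128, edgeR). DESeq2 gave −1.03 and did not call it, where it called 34.5% of all genes lower. Its common counterpart Cox6a1 had 12184 and 11614 normalized counts in the IPs against 3059 and 2646 in the inputs, a log2 fold change of 1.93 ± 0.116 (SE).

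Cox4i2, a subunit known from lung and from pericytes, had 22 and 30 CDS counts in the inputs and 0 and 3 in the IPs. Its share of the counts was 11.9 times larger in the inputs, with an exact 95% interval from 3.84 to 59.4 that covers counting error only. Ndufa4l2, also known from pericytes, had 19 and 30 counts in the inputs and 4 and 1 in the IPs, a ratio of 6.71 (2.69 to 21.6). Their common counterparts Cox4i1 and Ndufa4 rose by 1.91 ± 0.0957 and 2.00 ± 0.137 (SE) on the log2 scale. The 5 pericyte and mural cell markers were all lower in the IP, with a median of −3.57 and a summed CPM of 200.2 and 209 in the inputs against 14.4 and 16.2 in the IPs. Without any count filter Cox4i2, Ndufa4l2 and Cox6a2 were called lower and 75 of 82 genes higher, where 32.0% of all genes were lower and 28.5% higher. With the limit at a mean of 10 counts, which Cox4i2 and Ndufa4l2 reached only through their inputs, 3 of 80 were lower and 75 higher, where 37.3% and 34.6% of all genes were.

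Other scarce forms gave other values. Cox7a1, the heart and muscle form of Cox7a2, had 26 and 40 counts in the inputs and 29 and 37 in the IPs, and at the lower count limit its log2 fold change was 1.06 ± 0.331 (SE, adjusted p = 0.0172 by edgeR's quasi-likelihood test, Benjamini-Hochberg adjusted). Cox7a2 rose by 1.97 ± 0.149 (SE). Cox6b2, the testis form of Cox6b1, had 28 and 24 counts in the inputs and 9 and 2 in the IPs, and it did not pass the threshold at the lower limit (adjusted p = 0.120). Cox7b2 had 2 and 6 counts in the inputs and 7 and 6 in the IPs, Cox8b had 1 and 4 against 0 and 0, and Cox8c had none in these 4 libraries. Counts this low allow no statement on Cox7b2, Cox8b and Cox8c. The c subunit of the ATP synthase ring is encoded by Atp5g1, Atp5g2 and Atp5g3, which make the same mature protein. They rose by 2.16 ± 0.120, 1.89 ± 0.110 and 1.94 ± 0.114.

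**Figure D3:**
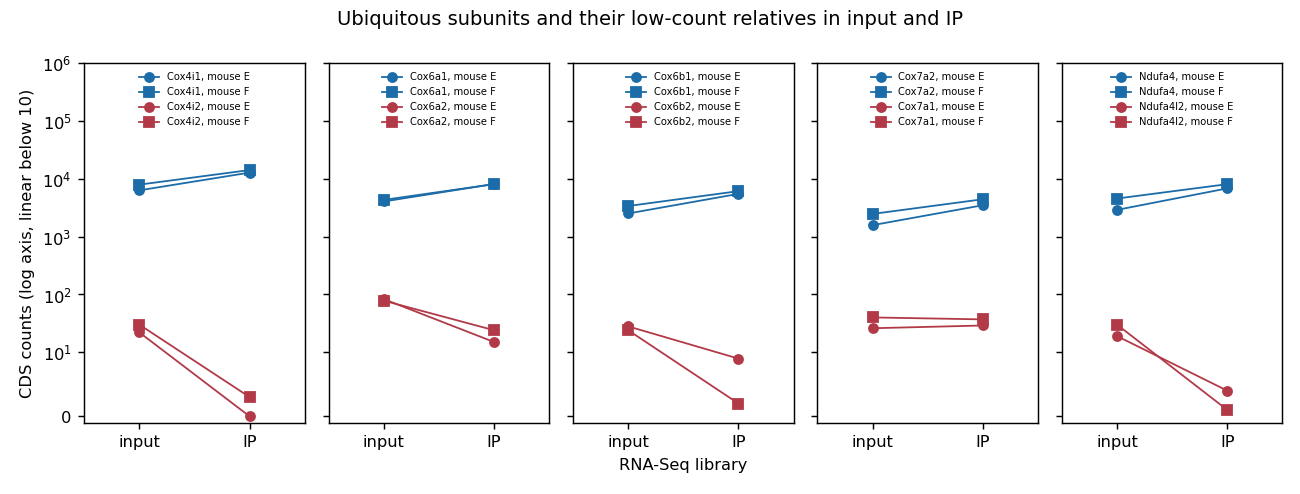
CDS counts (y axis, log scale above 10 and linear below) in the input and IP of mice E (circles) and F (squares) for 5 common subunits (blue) and their low-count relatives (red). Lines join the libraries of 1 mouse. The common forms are higher in the IP in both mice. Cox4i2, Cox6a2, Cox6b2 and Ndufa4l2 are lower, and Cox7a1 stays between 26 and 40 counts.

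The promoters of these genes were searched for the letters of factors known to act on them. A link between these letters and the IP values was not tested. NRF-1 is a transcription factor that binds GC-rich sites in many genes of the respiratory chain, and GABP, YY1 and ERR have also been described there. RefSeq promoter windows on GRCm38.p6, from 250 bases before to 50 after the annotated start, were at hand for 68 of the 83 genes. The NRF-1 site, written as GCGCA, any base and GCGC and searched on both strands, stood in 17 of them (25%) and in 7.17% of the windows of all 17492 coding genes. Of these windows, 6 are shown for genes whose IP values span from Ndufa5 down to Sdha, 30 bases each, 5′ to 3′ on the strand of the gene, with the site in capitals.
Ndufa11: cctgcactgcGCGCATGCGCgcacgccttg
Ndufa5: tgtgtgagctGCGCAGGCGCaaatctacct
Sdha: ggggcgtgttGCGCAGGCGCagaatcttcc
Sdhd: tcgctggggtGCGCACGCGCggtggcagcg
Cox6a1: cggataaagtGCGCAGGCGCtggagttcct
Atp5g2: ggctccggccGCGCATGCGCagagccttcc
They lie at chr17:56717692-56717721 for Ndufa11 (plus strand), chr6:24527697-24527726 for Ndufa5 (minus strand), chr13:74350276-74350305 for Sdha (minus strand), chr9:50603909-50603938 for Sdhd (minus strand), chr5:115349056-115349085 for Cox6a1 (minus strand) and chr15:102671070-102671099 for Atp5g2 (minus strand). In each, the first capital stands upstream of an annotated start, between position −26 (Ndufa5) and −117 (Cox6a1). Sdha, with a small rise in the IP, held 3 NRF-1 sites in its window. Ndufb4, which rose by 2.28 on the log2 scale, also held 3. Cox6a1 and Uqcrc1 held 2 each. The letters therefore stood in genes from both ends of the IP order.

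The other motifs, searched in the same way, were rarer. AAGATGGC, the YY1 letters, stood in 11 of the 68 windows (16.2%) against 3.57% of all coding genes, and they can overlap the ATG of the start codon. CCGGAAGT, read by ETS factors such as GABP, stood in 5 (7.35%) against 5.69%, and the ERR letters TCAAGGTCA in 2 (2.94%), Atp5g3 and Sdhd, against 0.377%. A match of letters is a description of the sequence and not a bound site.

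Translation efficiency (TE) asks how many ribosome footprints an mRNA carries for its level in RNA-Seq. It was taken as the ratio of footprint to RNA-Seq counts of the same mouse, each divided by a size factor. In the control mice most subunit mRNAs carried more footprints than their RNA level gives at the median gene. Of 76 genes tested, 52 were higher in footprints than in RNA-Seq and 8 were lower (edgeR's quasi-likelihood test, Benjamini-Hochberg adjusted), where 36.5% of all 11797 genes were higher and 37.3% lower. The median log2 difference was 0.37 for the subunit genes and −0.0096 for all genes. With total counts as the only scaling, 44 were higher and 13 lower, where 30.6% and 42.9% of all genes were, and the medians were 0.24 and −0.15. Without any count filter they were 0.26 and 0.21, so that the subunit genes exceeded all genes by 0.047.

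The values lay in a narrower band than those of all genes. The log2 TE of the subunit genes had an SD of 0.44 across 76 genes. Across all 10882 genes with a TE it was 0.99. The sets were not matched for read counts, so counting error may add to the wider spread of all genes. The subunit genes had a median of 0.33, and 76.3% lay above the median of all genes. Proteasome subunits were close to this, with an SD of 0.46, a median of 0.40 and 80% above. Tricarboxylic acid cycle enzymes had 0.38, 0.31 and 69.2%, and mitochondrial ribosomal proteins 0.61, 0.13 and 61.8%. Of cytosolic ribosomal proteins, 6.41% lay above. Of the 75 genes with a TE in all 4 mice, 48 lay above the median of all genes in each mouse and 13 below it in each. The share of all genes that did either was not computed. Mice A and B gave similar orders, at a Pearson's r of 0.940 (Spearman's rho 0.945) across the 76 genes as a description. By complex the medians of the log2 difference were 0.34 for I, 0.61 for II, 0.43 for III, 0.14 for IV and 0.43 for V. All 4 genes of complex II were called higher, and 5 of 11 of complex IV.

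The highest TE of complex I was that of Ndufc2, a membrane arm subunit. Its log2 TE was 1.10 and 1.20 in the control mice, which placed it at percentile 90.9 among all genes, and the fitted log2 difference was 1.20 ± 0.0748 (SE, adjusted p = 8.22e-10 by edgeR's quasi-likelihood test, Benjamini-Hochberg adjusted). Sdhc, the membrane anchor that was low in the IP, led complex II with log2 TEs of 1.20 and 1.01 and a fitted difference of 1.14 ± 0.0866. Complex III was led by Uqcrb (0.94 and 0.90), complex IV by Cox7b (0.77 and 0.62) and complex V by Atp5h, the d subunit of the peripheral stalk (0.93 and 1.02). Another membrane arm subunit, Ndufb2, reached 1.09 and 0.85. Only Ndufc2, Sdhc, Ndufb2 and Atp5h were called with more than a 2-fold difference, a size that 13.2% of all genes passed in this direction. In the lower direction Cox7c alone passed it, where 17.6% of all genes did.

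At the other end stood Cox7c, a small membrane subunit of complex IV. It had 1260.0 and 1298 normalized RNA-Seq counts in mice A and B and 617 and 591 normalized footprints. The footprints lay below the RNA in both mice, and the log2 difference was −1.04 ± 0.0763 (SE, adjusted p = 5.43e-09 by edgeR's quasi-likelihood test, Benjamini-Hochberg adjusted). Cox6a1 followed within complex IV at −0.55 ± 0.0719. The others called lower were Ndufs5, Ndufv3, Ndufb8 and Ndufb9 of complex I (−0.90 ± 0.227, −0.42 ± 0.101, −0.38 ± 0.0748 and −0.35 ± 0.0752) and Atp5sl and Atp5g2 (−0.37 ± 0.124 and −0.25 ± 0.0763). Ndufs5 moved between mice, with log2 TEs of −0.72 and −1.32. Its exon count was 0 in every RNA-Seq library, so its TE is uncertain. For genes with near-identical copies, uniquely mapped footprints and RNA-Seq reads may be lost to different degrees. The part of this in the low TEs was not tested. Without mouse A 5 genes were called lower and 48 higher, where 30.6% and 29.8% of all genes were. Without mouse B 4 were called lower and 48 higher, where 32.7% and 31.1% of all genes were. The calls of Atp5g2 and Atp5sl were lost both times, that of Ndufb9 without mouse A, and those of Ndufs5 and Ndufv3 without mouse B.

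Subunits that sit together in the protein had different TEs in both control mice. The catalytic head of the ATP synthase holds Atp5a1 and Atp5b in equal number, and their log2 TEs in mice A and B were 0.35 and 0.42 for Atp5a1 and −0.15 and −0.14 for Atp5b. The ranges did not overlap. Uqcrc1 and Uqcrc2, the paired core proteins of complex III, gave −0.066 and −0.056 against 0.29 and 0.43. Of the c subunit genes, Atp5g3 gave 0.59 and 0.56, Atp5g1 0.0096 and 0.13, and Atp5g2 −0.24 and −0.35, in the same order in both mice. Differences between genes were not tested. Across the 76 genes, TE and IP enrichment had a Pearson's r of 0.023 (Spearman's rho 0.014), given as a description.

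**Figure D4:**
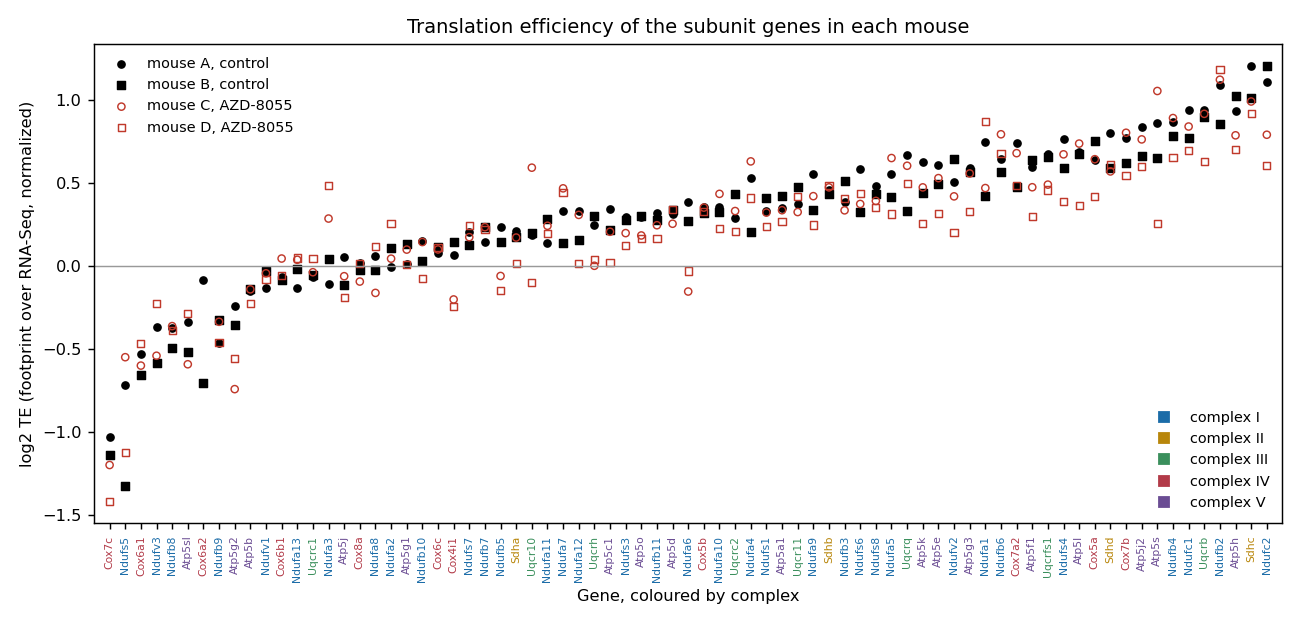
Log2 TE (y axis, normalized footprints over normalized RNA-Seq) of 75 subunit genes (x axis, names coloured by complex), ordered by the mean of the control mice A and B (filled), with the AZD-8055 mice C and D (open). Cox7c has the lowest control mean and Ndufc2 the highest, and most genes lie above 0. The TEs of the control and treated mice had a Pearson's r of 0.943 across 75 genes.

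No gene of the respiratory chain passed the threshold 1 h after AZD-8055. The count of calls was 0 in RNA-Seq (76 tested), in footprints (75) or in TE (76) by edgeR's quasi-likelihood test, Benjamini-Hochberg adjusted. Of all genes, 0.0575% were called higher and 0.0903% lower in RNA, 0.0468% and 0.982% in footprints, and 0.0763% and 0.788% in TE. At an unadjusted p under 0.05, 1 gene was higher and 0 lower in RNA, where 3.9% and 4.34% of all genes were. The counts were 4 and 13 in footprints, where 6.02% and 6.78% of all genes were, and 1 and 8 in TE, where 2.69% and 4.06% were. DESeq2 called 0 in RNA and TE, where it called 0.0493% of all genes higher and 0.14% lower in RNA, and 0.127% and 0.78% in TE. In footprints it called 0 higher (0.103% of all genes) and 2 lower (1.01%), Atp5h and Ndufc2. The median log2 changes were −0.0074, −0.037 and −0.063, beside −0.0035, 0.00099 and −0.011 for all genes. Under the same test, 72 of 78 cytosolic ribosomal protein genes fell in footprints, with a median of −0.92, and 71 fell in TE.

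For the core subunits the intervals were narrow. Atp5b changed by 0.019 in footprints with a 95% interval of −0.096 to 0.13 on the log2 scale, and Atp5a1 by −0.037 (−0.15 to 0.073). Cox4i1 gave −0.21 (−0.36 to −0.063) and missed the threshold (adjusted p = 0.239, edgeR). Cox5a gave −0.22 (−0.38 to −0.062) and Uqcrfs1 −0.18 (−0.34 to −0.015), and both also missed it. The intervals of the other core subunits spanned no change. Over all 75 genes the footprint changes ran from −0.38 (Ndufc2) to 0.39 (Ndufa3), and the RNA changes from −0.16 (Ndufb2) to 0.17 (Uqcr11). By complex the medians in footprints were −0.028 for I, −0.014 for II, −0.048 for III, 2.7e-05 for IV and −0.12 for V. In complex V the TE changes ran from −0.34 (Atp5g2) to 0.014 (Atp5sl), beside a median of −0.011 over all genes. None was called.

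Ndufc2 had the largest fall. Its normalized footprints were 1859 and 1956 in the controls and 1538 and 1386 in the treated mice, and its RNA-Seq counts were 865 and 849.8 against 890.2 and 911. Both treated mice lay below both controls in footprints and above them in RNA. The log2 change in TE was −0.45 ± 0.107 (SE, n = 2 mice per group) and missed the threshold (adjusted p = 0.0731 by edgeR's quasi-likelihood test, Benjamini-Hochberg adjusted). It passed with the mouse as a block, which uses that both libraries of a letter come from 1 animal, at −0.45 (adjusted p = 0.0130), where 0.983% of all genes were called lower and 0.263% higher.

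Atp5h had 4244 and 4161 normalized footprints in the controls and 3405 and 3356 in the treated mice, with no overlap, and a log2 change of −0.31 ± 0.0660 (SE, adjusted p = 0.0643, edgeR). Ndufb5, of the membrane arm, went from 1433 and 1329 to 1124 and 1050.2 (−0.35 ± 0.0760, adjusted p = 0.0773, edgeR). Ndufa3, also of the membrane arm, moved the other way, from 668 and 649 to 825 and 887 (0.39 ± 0.0873, adjusted p = 0.0843, edgeR). Ndufa6 and Uqcrh were next among the falls, at −0.29 ± 0.0891 and −0.26 ± 0.0785, and Ndufa7, Ndufv3 and Cox6a1 among the rises, at 0.25 ± 0.0920, 0.23 ± 0.128 and 0.22 ± 0.0746 (SE). None of these passed the threshold with all mice. In footprints 21 of 75 subunit genes had both treated libraries below both controls and 11 had both above, where 20% and 20.2% of all genes did. In TE these counts were 22 and 8 of 76, where 20.8% and 16.2% of all genes did, and in RNA 4 below and 22 above of 76, where 15.8% and 23.6% did.

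The footprint calls changed when a treated mouse was left out. Without mouse C, whose footprint library was the shallowest, 4 genes were called higher (Ndufa1, Ndufa3, Ndufv3 and Cox6a1) and 6 lower (Ndufb5, Ndufc2, Uqcrb, Atp5h, Atp5k and Atp5l), where 3.24% and 4.39% of all genes were. Without mouse D 5 were called lower (Ndufa6, Ndufb5, Ndufc2, Atp5h and Atp5g2), where 1.75% of all genes were, and 0 higher, where 0.717% were. These fits leave 1 treated library, which is assumed to vary like the controls. They took their spread from all genes together, so the calls do not rest on each gene's own spread between mice. Ndufb5, Ndufc2 and Atp5h changed by −0.37, −0.43 and −0.30 without mouse C and by −0.32, −0.33 and −0.33 without mouse D. Both fits use the same controls, so they are not independent. In RNA-Seq, Ndufs5 had 639.6 and 629 normalized counts in the controls and 437 and 824 in mice C and D. Its log2 change without mouse D was −0.57, which rests on mouse C alone. The exon counts of Ndufs5 were 0 in every RNA-Seq library, so its assignment of reads is uncertain. Of the genes next to the list, Cox7a2l, a factor that joins complexes III and IV into supercomplexes, fell in TE by 0.73 on the log2 scale (adjusted p = 0.0421 by edgeR's quasi-likelihood test, Benjamini-Hochberg adjusted).

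mRNAs of cytosolic ribosomal proteins are known for a TOP start, a C followed by a run of pyrimidines at the cap, through which mTOR controls them. By the annotated starts, a C with at least 4 more pyrimidines opened 14 of 64 cytosolic ribosomal protein genes with a window (21.9%), 2.67% of all coding genes and 4 of 68 subunit genes (5.88%). The 4 are shown with the run at the annotated start in capitals, after 10 bases of the promoter.
Atp5d: catcgcgcagCCTTCggagaatcctgtgcg
Atp5g2: gcgcccccgcCCCTCTCTgtcttctctgcc
Ndufb11: aagaggcccgCTCTTTagaagcttgctgtc
Uqcrfs1: cctcccgctcCTCTTCgggccgtcgttcga
They lie at chr10:80142305-80142334 for Atp5d (plus strand), chr15:102671028-102671057 for Atp5g2 (minus strand), chrX:20617600-20617629 for Ndufb11 (minus strand) and chr13:30545297-30545326 for Uqcrfs1 (minus strand) on GRCm38.p6 (RefSeq). Their log2 changes in TE were −0.022 ± 0.101 for Atp5d, −0.34 ± 0.111 for Atp5g2, −0.094 ± 0.103 for Ndufb11 and −0.19 ± 0.102 for Uqcrfs1 (SE). None of the 4 passed the threshold (adjusted p from 0.417 to 0.987 by edgeR's quasi-likelihood test, Benjamini-Hochberg adjusted). Annotated starts need not be the starts used in brain.

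**Figure D5:**
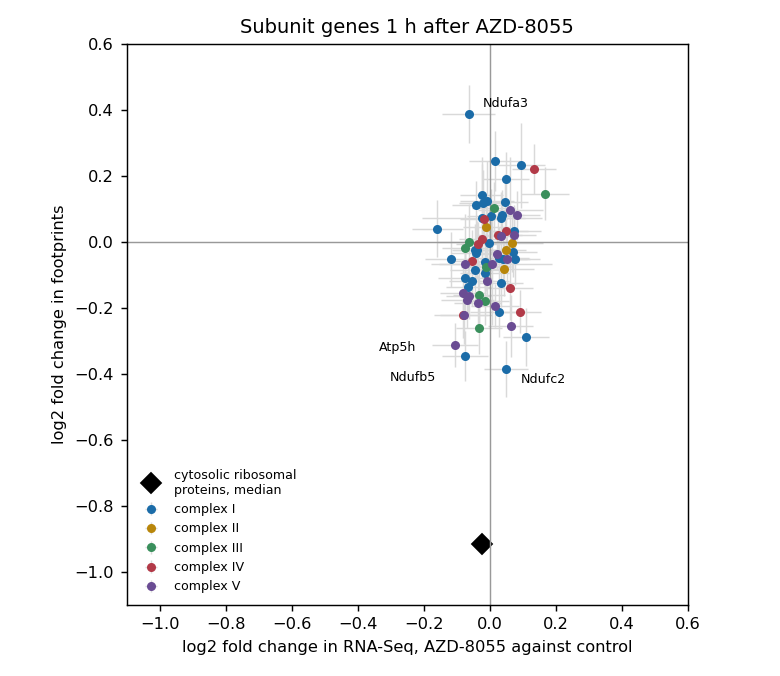
Log2 fold change after AZD-8055 in RNA-Seq (x axis) and in footprints (y axis) for the 75 subunit genes tested in both (circles coloured by complex, bars are SE, n = 2 mice per group), with the median of 78 cytosolic ribosomal protein genes (diamond). The subunit genes stay between −0.38 and 0.39 in footprints, while the ribosomal median lies at −0.92.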

How the data were processed

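RNA-Seq and ribosome footprint counts of mice A to D came from matched lysates, and input and IP counts of mice E and F from RiboTag tissue. The values are whole-number counts per gene that the authors deposited, on CDS and, for RNA-Seq, on exons. Per the labels and methods, reads were aligned to mm10 with Bowtie2 and TopHat2, rRNA reads were removed, and uniquely mapped reads were counted with HTSeq in strict intersection mode. Tool versions are not given in the sources used here.

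Each comparison was fitted across all genes with a mean of at least 37 CDS counts per library, by edgeR 4.0.16 in R 4.3.3 (TMM, quasi-likelihood test, Benjamini-Hochberg adjustment, threshold 0.05). TE was fitted over the 8 matched libraries, with assay, treatment and their interaction. IP was fitted over 4 libraries, and RNA and footprint changes over 4 each. Normalized counts were divided by DESeq2 1.42.0 size factors, separately for mice A to D and mice E and F, so levels are set side by side within a set. The scripts were tested on simulated data. Date-like entries that name no gene, 27 in number and 0.350% of CDS counts, were kept. They are among the 20504 genes, in the library totals, and in the fits where they reached the count limit.

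Libraries of 1 letter come from the same animal. Their deviations from the group means correlated at 0.243 (A and B), 0.197 (C and D) and 0.476 (E and F). The labels give no other batch. P-values rest on the spread between libraries within groups of 2 mice, which edgeR partly shares across genes. In the TE fits this spread came from all groups of mice A to D. The main fits hold no term for the mouse. Genes were named as fixed core subunits, as second forms, as the 5 largest rises or falls of a comparison, as the ends of each complex in TE, or as called where at most 12 were. The members and lists were chosen with earlier results of these data known. The alternatives were DESeq2, RLE and total-count scaling, other count limits, exon counts, a replicate block and leaving out each mouse. The values of 1 subunit gene are not reported here, although it is included in the counts and medians.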

Additional observations from a re-analysis of the deposited data

How the results depend on the processing

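No named subunit gene past the threshold reversed its direction under any alternative, and of the values for single genes 1997 kept their direction and side of the threshold, 28 lost the call, 27 gained it and 9 moved. In the control mice the count called lower in footprints was 13 with total counts and 4 to 5 without 1 mouse, and 4 higher and 1 lower at over 2-fold. The median log2 difference was 0.24 with total counts, 0.31 at a mean of at least 10 counts and 0.26 without a count filter, where that of all genes rose to 0.21. The median log2 TE was 0.23 with total counts and 0.30 to 0.33 without 1 mouse. In the IP 0 genes were lower by DESeq2 and 3 at a mean of at least 10 counts or without a filter. The median was 1.98 by DESeq2, with RLE and at a mean of at least 10 counts, 1.96 without a filter, 1.48 with total counts and 1.46 on exons. With 1 mouse left no fit was made, and the median of its own log2 ratios of IP to input was 2.01 to 2.06. The median over genes of the mean ratio of both mice was 2.06, and 1.59 on exons. After AZD-8055, leaving out 1 mouse gave 0 to 1 lower in RNA and 0 to 4 higher and 0 to 6 lower in footprints. In footprints 2 were lower by DESeq2, where 1.01% of all genes were. Without a filter Ndufc2 passed the threshold in footprints (log2 change −0.41) and in TE (−0.49). The share of all genes that passed without a filter was not computed. With the replicate block, which pairs the libraries of a mouse, 1 gene was lower in TE, Ndufc2, and no other comparison changed by over 1.5 times. With 1 mouse left in a group, that mouse is assumed to vary like the others. Without mouse C or D, the footprint fits took their spread from all genes together. The footprint depth of mice B to D and n = 2 limit changes of small size.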
